A study of Mus musculus with 2 samples.

Results

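Single-exon fragments are transcript models with 1 exon that were assigned to an annotated gene without matching any of its annotated transcripts. They were chosen as the models of known genes with 1 exon in the class Genomic or the class ISM (incomplete splice match), the names that TALON, the program named in the deposited annotation, gives to such reads. Replicate 1 held 10067 of these models and replicate 2 held 13272, which together make 23339 of the 199479 models of mouse genes. The libraries are long-read RNA-seq of the adrenal gland. The mice were males of the strain B6CASTF1/J, aged 4 days, and no treatment or second group is part of the design. The labels call the 2 libraries biological replicates, but 1 label names the same animal for both and another names a different animal for replicate 2, so differences between them may be technical. After removal of spike-in transcripts, replicate 1 held 688260 reads and replicate 2 held 810645. The 5 cortex markers (Cyp11a1, Cyp21a1, Hsd3b1, Star and Nr5a1) summed to 4.04% and 2.78% of the mouse reads, and the 5 chromaffin markers (Chga, Chgb, Th, Dbh and Pnmt) to 1.25% and 0.926%. The 5 hepatocyte markers (Alb, Afp, Ttr, Apoa1 and Apoa2) summed to 0.0202% and 0.959%, and each was higher in replicate 2. The part of liver RNA in the differences between the libraries was not tested, and its values stand beside the results that it touches.

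As background, long-read RNA-seq copies a messenger into cDNA and reads the copy in 1 piece, so that a complete read shows every splice junction of its messenger. A copy that stops early after starting at the poly(A) tail keeps the 3′ part of the messenger, and if it stops within the last exon the read has no junction left. Reads without a junction can also come from unspliced RNA, or from priming at a run of adenines inside a messenger or an intron. A class name such as Genomic or ISM says how a read relates to the annotation and not which of these events made it. In poly(A) site selection, the hexamer AATAAA, or less often ATTAAA, lies shortly upstream of the cleavage position and is bound by the cleavage and polyadenylation machinery.

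The sequences around fragment ends show the kinds of end that the reads below rest on. The first set gives the last 30 bases of the annotated transcript on which a much-read fragment ended, with AATAAA or ATTAAA in capitals, from the GENCODE M21 transcripts of mm10. Cyp11a1 lies at chr9:58026994-58027023, Chga at chr12:102564999-102565028, Slc25a5 at chrX:36798778-36798807 and Kcnk3 at chr5:30625242-30625271, all on the plus strand.
Cyp11a1: agggagttAATAAAcacttgaacactgagg
Chga: aaggaagAATAAAgtgctttgggctctttg
Slc25a5: aaattgaagaAATAAAaatacccaaaacca
Kcnk3: cctAATAAAtgctgtccatggagaccaggc
In all 4 genes the hexamer stands in the last 30 bases before the annotated end.

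The second set gives the 30 bases up to a fragment end that lies in an exon, more than 300 bases from every annotated transcript end, and that occurred in both libraries. These 3 were chosen because they hold the hexamer, and much-read ends without it, such as those of Gadd45gip1, Mrpl24 and Rtraf, are not shown. Of the 20 most-read such ends 11 had AATAAA or ATTAAA in the 40 bases before them, and of the 418 with enough sequence 259 had. Kng1 lies at chr16:23081657-23081686 and Rab2a at chr4:8606635-8606664 on the plus strand, and Slc25a4 at chr8:46207168-46207197 on the minus strand.
Kng1: tcctagtggaAATAAAattcagacttgatg
Slc25a4: tcattAATAAAgactactcaatacacttta
Rab2a: ataactttgAATAAAtggttaatgttcact
The third set gives such unannotated ends chosen because adenines follow them, the 3 of that kind among the 20 most-read, as 10 bases before and 20 bases after the end, with runs of 3 or more adenines in the last 20 bases in capitals. Kcnk3 lies at chr5:30623533-30623562, Igfbp4 at chr11:99052612-99052641 and Ywhab at chr2:164018181-164018210, all on the plus strand.
Kcnk3: agggcaagatAAAAAAgAAAgAAAgAAAAA
Igfbp4: ttccttttttAAAAAAAtcagaacAAAAcc
Ywhab: gcactgatttAAAccAAAAAAAAAAAAAAA
Kcnk3, a potassium channel of cortex cells, appears in both sets because its fragments ended at 2 places of the same last exon.

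Fragments held 41188 reads in replicate 1 and 67773 reads in replicate 2. This was 5.98% of the mouse reads in replicate 1 (95% Wilson interval 5.93 to 6.04) and 8.36% in replicate 2 (8.30 to 8.42), a mean of 7.17% ± 1.68 (SD, n = 2). The intervals cover counting error alone. With 1 library on each side the difference between the 2 has no replicate check. The share was higher in replicate 2 also without the 92 genes that were at least 16-fold higher there (5.98% and 8.21%), and without the 20 genes with most fragment reads (5.14% and 6.82%). Genomic models made up 71.7% of the fragment reads in replicate 1 and 73.4% in replicate 2.

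Most models were seen once, and a few carried many reads. Models with a single read made up 52.6% of the models and 12.9% of the fragment reads in replicate 1, and 50.1% and 9.80% in replicate 2. The 10 most-read models took 15.8% of the fragment reads in replicate 1 and 19.2% in replicate 2. The median length of a fragment model, weighted by reads, was 866 bases in replicate 1 and 742 in replicate 2, against 1916 and 1794 for multi-exon models of known genes. Protein-coding genes gave 96.1% and 95.9% of the fragment reads. Reads of genes annotated as antisense were more often fragments, at 38.7% in replicate 1 and 48.5% in replicate 2, than those of protein-coding genes at 6.17% and 8.77%. Of the fragment reads of antisense genes, 62.8% and 62.2% lay over an exon of another gene on the opposite strand alone, compared with 11.9% and 10.9% in protein-coding genes. The sources used here do not say whether strand was marked, so reads of such pairs cannot be told apart.

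Fragments were found in 8151 known genes in replicate 1 (52.5% of those detected) and in 9980 in replicate 2 (60.1%), and 6534 of the 11597 genes with fragments had them in both. Models with the same start and end in both libraries numbered 1848 and held 28.4% of the fragment reads in replicate 1 and 29.0% in replicate 2. When only the 3′ end was compared, within 50 bases, 81.5% and 78.4% of the fragment reads lay on an end that the other library also had. Of the fragment reads, 77.8% and 77.1% ended exactly on annotated transcript ends, which are common to both libraries. The share of common ends thus does not measure the agreement of read ends alone.

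The last exon held most fragment reads. A model was placed in the last exon when it lay wholly inside a last exon of an annotated multi-exon transcript of its gene, in an intron when it touched no exon of its gene, and at an exon edge when it crossed from an exon into an intron or beyond the gene. The last exon held 73.4% of the fragment reads in replicate 1 and 71.7% in replicate 2 (mean 72.5% ± 1.20, SD, n = 2). Exon edges held 20.5% and 21.6%, introns 5.46% and 6.07%, first exons 0.503% and 0.468%, and inner exons 0.0923% and 0.139%. A further 0.0583% and 0.0708% lay on models outside the annotated bounds of the gene to which they were assigned. The order of the positions was the same in both libraries.

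The 2 classes differed in position. ISM fragments lay in the last exon for 97.5% of their reads in both libraries, and Genomic fragments for 63.8% and 62.3%. Exon edges held 28.1% and 29.1% of the Genomic reads, and introns 7.54% and 8.21%. Of the ISM models, 85.1% and 84.8% had the exact bounds of an annotated exon, whereas no Genomic model did. The bounds and the class name come from the same step of the deposited processing, so the contrast in position between the classes is given as a description.

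**Figure D1:**
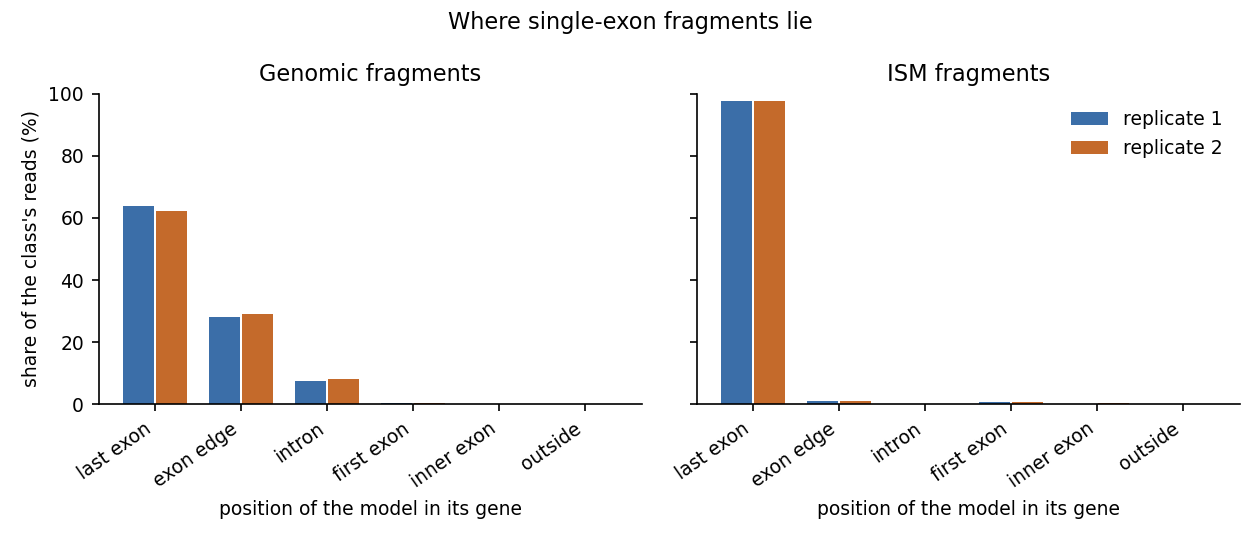
Share of the reads of each class (%, vertical axis) by position of the model in its gene, for Genomic fragments (left) and ISM fragments (right), with 1 bar per library. ISM reads lie in the last exon for 97.5% in both libraries, and Genomic reads are spread over the last exon (63.8% and 62.3%), exon edges (28.1% and 29.1%) and introns (7.54% and 8.21%).

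Last-exon fragments covered both coding and untranslated sequence. Of their reads, 47.0% in replicate 1 and 43.9% in replicate 2 were on models without any annotated coding base of the gene, and 51.9% and 54.9% on models that held coding bases. Fragments at exon edges held coding bases for 80.2% and 82.9% of their reads. The largest kind of exon edge was a model that ran over at least 1 whole annotated intron without a junction, with 5924 reads in replicate 1 (14.4% of the fragment reads) and 10560 in replicate 2 (15.6%). Cyp11a1 alone gave 3242 and 4701 of these reads. Ahsg, a gene of liver, gave another 1798 in replicate 2, whereas its 23 fragment reads in replicate 1 lay on a last-exon model.

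The 3′ ends of fragments mostly coincided with annotated transcript ends to the base. This held for 77.8% of the fragment reads in replicate 1 and 77.1% in replicate 2, compared with 88.3% and 87.7% of the reads of multi-exon ISM models. Both fragment values lay below both multi-exon values. An exact two-sided permutation test over the 4 library values gave p = 0.333, the smallest that 2 against 2 can give. The test treated the 4 values as independent, although both classes were measured in the same 2 libraries. Within 50 bases the fragment shares were 78.5% and 77.9%. Few fragment reads ended 1 to 300 bases from an annotated end (1.68% and 1.81%), and more ended over 300 bases upstream of the nearest one (14.7% and 15.1%) or over 300 bases downstream (5.78% and 5.97%).

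The step at 300 bases limits how these ends can be read. Replicate 1 had 198 models that ended 1 to 300 bases from an annotated end and 430 that ended between there and 600 bases away, and replicate 2 had 251 and 578. Whether reads that ended within 300 bases of an annotated end were placed on it cannot be read from the files. In replicate 1, 482 models were under 50 bases long and carried 2127 reads, and in replicate 2, 639 carried 3618. Models of 1 base carried 1150 and 1510 reads. The bounds of such a model are not the length of its reads, which the files do not give.

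**Figure D2:**
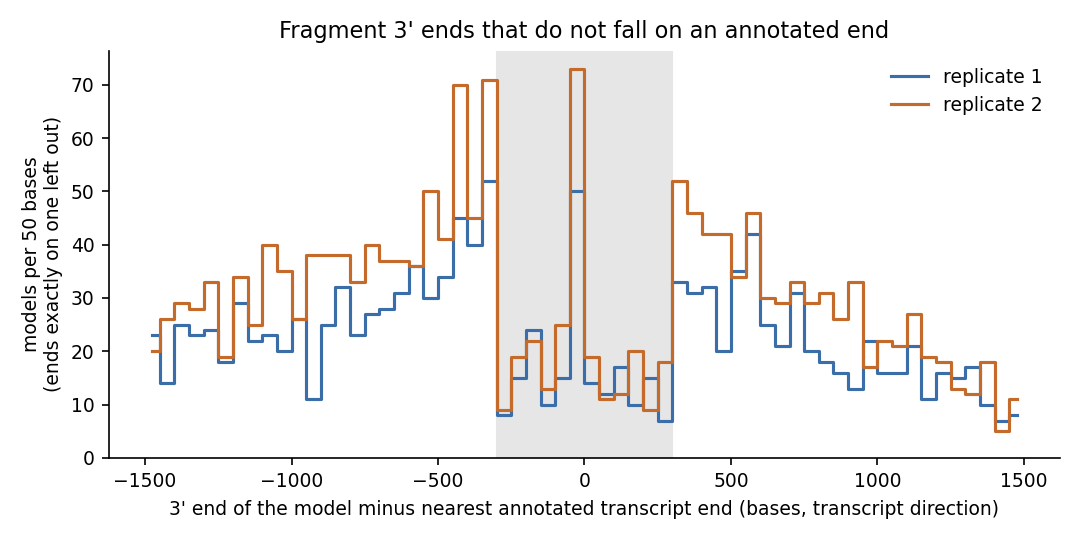
Number of fragment models per 50 bases (vertical axis) by the distance of the model's 3′ end from the nearest annotated transcript end of its gene (horizontal axis, bases, negative upstream), with ends exactly on an annotated end left out and 1 line per library. The shaded zone within 300 bases of an annotated end holds 198 models in replicate 1 and 251 in replicate 2, and the counts step up just outside it.

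The 5′ edges of the models followed the annotation in part. They lay on none of the annotated positions examined (an exon's upstream edge, a transcript start or a transcript end) for 43.6% of the fragment reads in replicate 1 and 39.0% in replicate 2. In ISM fragments the 5′ edge was the upstream edge of an annotated exon for 92.1% of the reads in replicate 1 and 90.4% in replicate 2. In Genomic fragments it was an annotated transcript end for 30.7% and 35.6% of the reads, and none of the annotated positions for 58.0% and 49.9%. Both edges of the model lay on annotated transcript ends for 26.9% and 31.6% of the Genomic reads.

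Ends in exons far from annotated ends were examined for 2 sequence features. Exonic sequence after the end was at hand for 3965 fragment reads in replicate 1 and 6516 in replicate 2. Intron sequence was not used here. The 20 bases after the end held at least 12 adenines for 14.4% of these reads in replicate 1 and 13.0% in replicate 2, compared with 1.35% of all 20-base windows in the last exons of the genes with fragments. In multi-exon ISM models the shares were 14.01% and 13.1%, between the fragment values and with p = 1 in the exact permutation test over 4 values. AATAAA or ATTAAA stood in the 40 bases before the end for 48.4% and 50.4% of the fragment reads, compared with 4.24% of all 40-base windows in those last exons and 72.5% of the annotated ends. On the opposite strand the same hexamers were found before 8.73% and 8.99% of the fragment reads and in 4.57% of the windows. In multi-exon ISM models the hexamer share was 38.9% and 43.9% (exact permutation p = 0.333). A match describes the letters and does not show a used site.

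Unannotated exonic ends found in both libraries numbered 483, of which 51 were followed by at least 12 adenines in 20 bases. The end of Kng1, a precursor of kinins made in liver, had 2 reads in replicate 1 and 453 in replicate 2. The end of Slc25a4, a mitochondrial ADP/ATP carrier, had 113 and 150 reads, and that of Rab2a, a GTPase of vesicle traffic, had 67 and 63. Among ends followed by adenines, Kcnk3 had 179 and 170 reads and Igfbp4, which binds insulin-like growth factors, had 26 and 73. Ywhab, a 14-3-3 protein, had 5 and 51 reads at its adenine-rich end. Apart from Kng1 and Ywhab, the reads at the ends named here stood within a factor of 3 between the libraries. The end of Kcnk3 followed by adenines lies 1310 bases from the nearest annotated end, and its fragments at the annotated end had 242 and 317 reads.

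Across genes, the share of reads in fragments was low for most and high for a few. Of the 5453 genes with at least 20 reads in each library, the median share was 2.38% in replicate 1 and 3.57% in replicate 2. The 25th and 75th percentiles were 0% and 6.90% in replicate 1 and 0.649% and 9.94% in replicate 2. Fragments made up over 50% of the reads of 72 genes in both libraries, and 873 genes had no fragment in either. Of 199 genes with single-exon transcripts alone, 197 had no fragment in either library. This follows largely from the classes, since a read with 1 exon can match such a transcript and is then not a fragment. No fragment model lay wholly inside the exon of such a gene. Over the 5453 genes the shares of the 2 libraries had a Pearson r of 0.90 and a Spearman rho of 0.72, given as a description, since genes are not independent replicates.

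**Figure D3:**
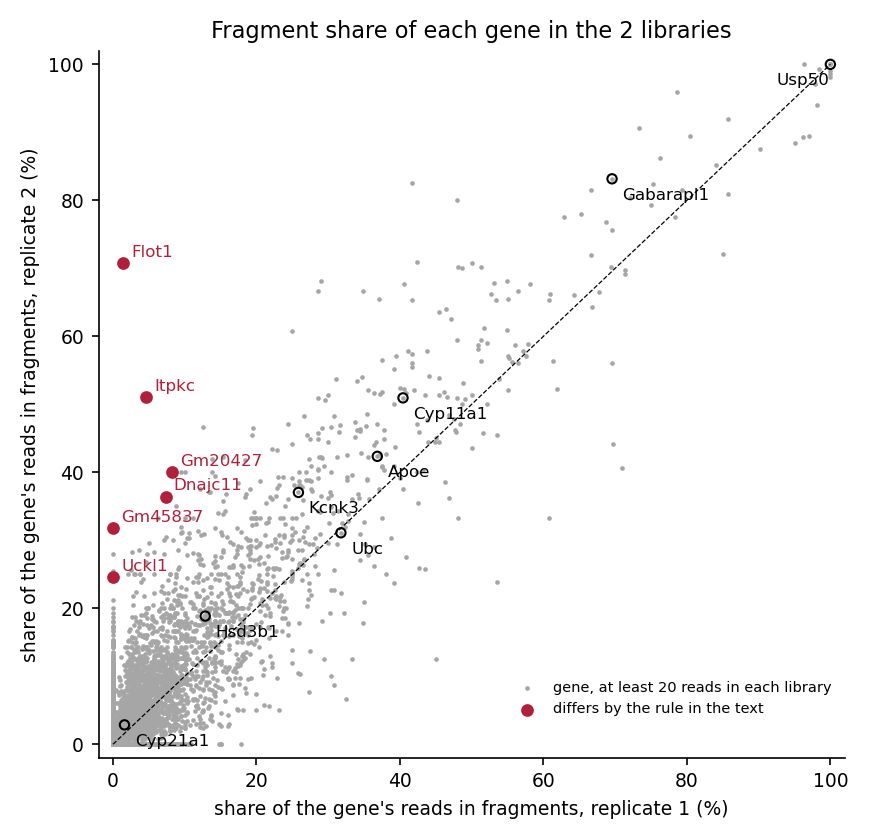
Share of each gene's reads in fragments (%) in replicate 1 (horizontal axis) and replicate 2 (vertical axis) for the 5453 genes with at least 20 reads in each library, with the dashed line at equal shares. Named genes are circled in black, and the 6 genes in red differ between the libraries by at least 20 percentage points, all higher in replicate 2.

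Cyp11a1, the enzyme that turns cholesterol into pregnenolone, had the most fragment reads. They numbered 3246 of its 8030 reads in replicate 1 (40.4%) and 4707 of 9240 in replicate 2 (50.9%). A single Genomic model carried 3242 and 4701 of them, at chr9:58023716-58027023 in replicate 1 and chr9:58023421-58027023 in replicate 2. Both models end on the annotated transcript end shown above and span 4 exons and 3 whole introns of the main transcript, the annotated transcript of the gene with most reads, so that 774 of their 3308 and 3603 bases are exonic. Only a few reads of Cyp11a1 fragments lay on other models, so reads confined to the last exon, of 330 bases, and reads across introns cannot be told apart here.

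Other steroid genes had smaller shares. Hsd3b1, which converts pregnenolone to progesterone, had 724 fragment reads of 5631 (12.9%) and 753 of 3995 (18.8%). Cyp21a1, the 21-hydroxylase, had 201 of 12570 (1.60%) and 224 of 7862 (2.85%), and its fragments overlap exons of Tnxa on the opposite strand. Cyp11b1, the 11-beta-hydroxylase, had 130 of 3697 (3.52%) and 111 of 2767 (4.01%). The most-read fragment of each lay in the last exon, and all 3 shares were higher in replicate 2. Of the 16 genes of the steroid list, all passed 20 reads in each library, the median share was 4.04% and 5.02%, and 14 were higher in replicate 2. Of all multi-exon genes tested, 60.1% were higher in replicate 2. Some of the 14 differed by few reads, such as Fdx1 with 5 and 6. Cyp11b2, the aldosterone synthase, and Nr0b1 had 1 fragment read in 1 library each.

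Chromaffin genes had a similar range without a gene as high as Cyp11a1. Chga, the main protein of chromaffin granules, had 215 fragment reads of 3317 (6.48%) and 298 of 2770 (10.8%). Nearly all lay on 1 Genomic model that ran from 102562615 or 102562628 to 102565028 on chromosome 12 over the last 2 exons and the intron between them. Pnmt, which makes adrenaline, had 54 of 709 (7.62%) and 62 of 769 (8.06%), also at an exon edge. Scg2 had 40 of 817 (4.90%) and 57 of 804 (7.09%), on models placed in a last exon. Its model in replicate 1, of 1384 bases, lay in a last exon of another annotated transcript. That model ran over 1 whole intron of the main transcript. Cyb561 had 21 of 378 (5.56%) and 14 of 352 (3.98%). Chgb, a second granule protein, had 4 of 2632 (0.152%) and 9 of 2380 (0.378%), far below Chga in both libraries. Of the 18 genes of the list 14 passed 20 reads in each library, with a median share of 4.53% and 5.72%, and Npy and Scg5 had no fragment.

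Some genes made mainly in liver had many fragment reads in replicate 2, and others had few. Ahsg, a plasma glycoprotein, had 23 fragment reads of 41 in replicate 1 and 1798 of 3063 in replicate 2, which are shares of 56.1% and 58.7%. Kng1 had 3 of 7 (42.9%) and 458 of 1178 (38.9%), and Rbp4, the carrier of retinol, had 8 of 18 (44.4%) and 318 of 1202 (26.5%). All fragment reads of Rbp4 lay on a model of 2 bases in both libraries. Apoe, which carries lipids and is also expressed in cortex cells, had 616 of 1672 (36.8%) and 3081 of 7276 (42.3%), all on 1 model at chr7:19696267-19696620 in both libraries. Alb, in contrast, had 0 of 48 and 5 of 2984 (0.168%), and Trf had 0 of 156 and 16 of 4708 (0.340%). In replicate 2, Afp had 0 of 943, Ttr 2 of 905, Apoa2 7 of 862, Apoa1 33 of 2077 and Serpina1a 0 of 175. High numbers of reads of liver genes in replicate 2 thus came with high shares in some and low shares in others. Of the 10 genes of the lipid and liver list, 5 passed 20 reads in each library, with a median share of 0.971% and 1.06%. Kng1 did not pass, and Ahsg and Rbp4 are not on the list.

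Fragments made up over 50% of the reads in both libraries in each of the 10 genes with the highest shares among the 1383 genes with at least 100 reads in each library. Usp50, a ubiquitin peptidase homolog, had fragments alone, with 115 of 115 and 106 of 106 reads, and its main model overlaps exons of Gm10774 on the same strand. Gabarapl1, a protein of autophagosome formation, had 224 of 322 (69.6%) and 326 of 392 (83.2%). Ndufb3, a subunit of respiratory complex I, had 205 of 287 (71.4%) and 277 of 397 (69.8%). Mrpl30 and Mrpl24 of the mitochondrial ribosome had 67.7% and 66.5%, and 55.6% and 56.2%. Gadd45gip1 had 66.8% and 64.3%, Mcee 57.8% and 58.9%, and the ribosomal gene Rpl39 54.9% and 60.9%. Hdac7, a histone deacetylase, had 57.6% and 57.1%. Slc25a5, the ADP/ATP carrier that is the paralog of Slc25a4, had 51.2% and 59.5%. In these 10 genes the libraries stood within 14 percentage points of each other, and within 2 points for Usp50, Ndufb3, Mrpl30, Mcee, Hdac7 and Mrpl24. The 114 fragment reads of Mrpl24 in replicate 2, and the 90 in replicate 1, lie on a model of 1 base, 346 bases upstream of the annotated end.

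At the other end, 10 of the 100 most-read genes had no fragment in either library. The main transcripts of Cebpb, Gm15459, Gm10123, Ftl1-ps1, Gm15500 and Jund have 1 exon, while those of Eef1a1, Fabp4, Rps28 and Ftl1, the ferritin light chain, have several. In the former a read with 1 exon can match the annotated transcript and is then not a fragment. Fabp4, Rps28 and Gm15500 were named after their values were seen. For Ftl1, 0 of 981 and 0 of 1139 reads allow shares of up to 0.306% and 0.263% by counting error alone. Reads of Ftl1 and its copy Ftl1-ps1 can be split by the counting and are uncertain. Housekeeping messages were low as a list, with a median share of 0.468% and 0.891% over 11 genes. Within it Tuba1b had 46 of 958 (4.80%) and 89 of 1031 (8.63%), Rpl4 4.87% and 7.76%, Eef2 4.07% and 7.22% and Actb 2.32% and 5.74%, while Eef1a1 had no fragment.

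Noncoding and rapidly turned over messages gave few tested genes. Meg3, a long noncoding RNA of an imprinted locus, had 88 of 188 (46.8%) and 162 of 335 (48.4%). Of these, 10 and 22 reads lay in its first exon and ended before a stretch with 19 adenines in 20 bases. H19 had 3 of 162 (1.85%) and 27 of 419 (6.44%), and Malat1 and Neat1 had none, with 39 to 98 reads in a library. The main transcripts of Malat1 and Neat1 have 1 exon, so a read with 1 exon can match them and is then not a fragment. Of the immediate early genes, 6 passed 20 reads in each library, and Dusp1 with 5 of 63 and 2 of 37 and Nr4a1 with 1 of 57 and 0 of 35 were those with a fragment. Ier2, Jun, Junb and Jund, the tested ones without a fragment, likewise have main transcripts of 1 exon. None of the 10 long neuronal genes passed 20 reads in each library. Kif1b, the most-read fragment gene among them, had 10 fragments of 12 reads and 9 of 14.

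The share of a gene's reads in fragments went with the length of its last exon. In genes whose main transcript has a last exon under 250 bases, the median share was 0% in replicate 1 and 0.618% in replicate 2 (490 genes). It was 2.17% and 3.49% for last exons of 500 to 999 bases (1351 genes) and 5.71% and 8.70% for 2000 to 3999 bases (869 genes). For 4000 bases or more it was 4.40% and 6.22% (180 genes). Over 5254 genes with multi-exon transcripts, the Spearman rho with last exon length was 0.32 and 0.34, with total transcript length 0.24 and 0.26, and with the number of exons -0.04 and -0.02. These genes share their library and their annotation, and the values are descriptions. Some genes with high shares named above have short last exons, such as Rpl39, Ndufb3, Mcee and Slc25a5 with 230, 316, 291 and 421 bases. Others have longer ones, such as Gabarapl1 with 1245 and Gadd45gip1 with 1375 bases.

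**Figure D4:**
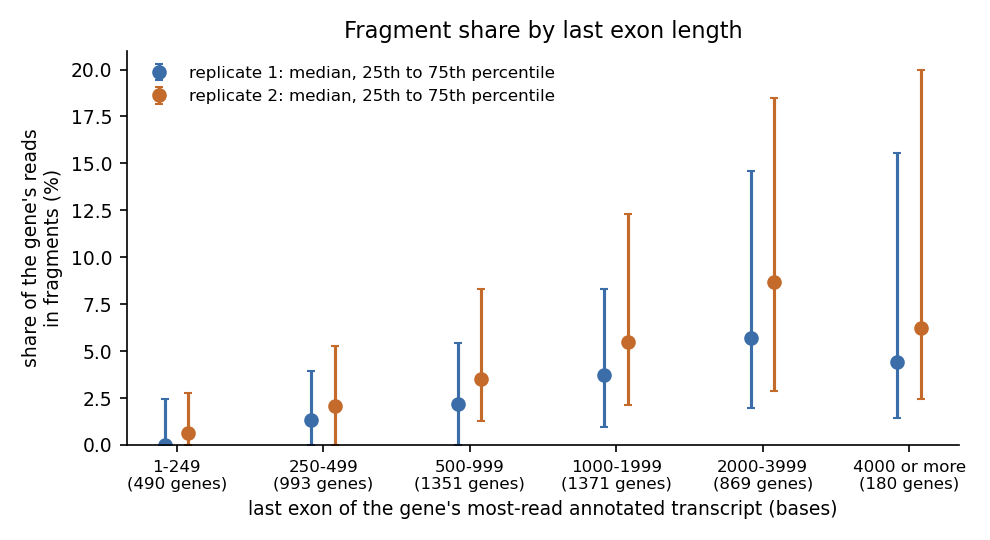
Share of a gene's reads in fragments (%, vertical axis) by the length of the last exon of its most-read annotated transcript (horizontal axis, bases), as the median with the 25th to 75th percentile over genes, for each library. Medians rise from 0% and 0.618% under 250 bases to 5.71% and 8.70% at 2000 to 3999 bases.

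Fragments in introns were spread thinly and made up a larger share of the reads in longer genes. Replicate 1 had 1320 intron models with 2250 reads in 1128 genes, and replicate 2 had 2224 with 4114 reads in 1764 genes. Models with 1 read made up 76.8% and 76.0% of them. The reads of intron fragments made up 0.0399% and 0.0416% of all reads of genes that span under 10000 bases, and 9.22% and 13.2% of those of genes that span 300000 bases or more. The share rose at each step of span between these in both libraries. The longest genes held 298 and 528 of the intron reads, so most lay in shorter ones. The share of all fragments rose with span as well, from 5.11% and 7.66% in the shortest genes to 20.2% and 26.8% in the longest. An exon of another gene on the same strand lay under 10.2% and 12.1% of the intron reads, and on the opposite strand alone under 19.2% and 16.7%.

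**Figure D5:**
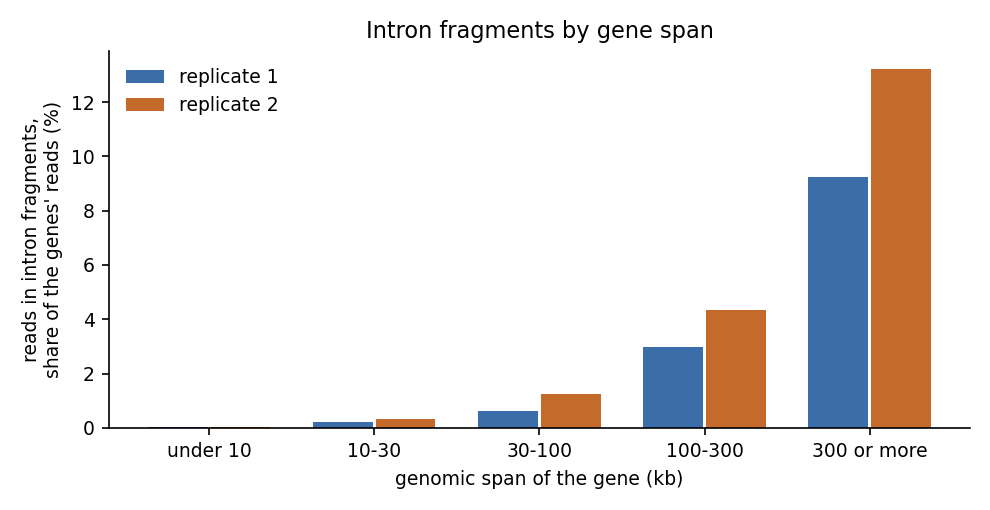
Reads on intron fragments as a share of all reads of the genes (%, vertical axis) by the genomic span of the gene (horizontal axis, kb), with 1 bar per library. The shares rise from 0.0399% and 0.0416% in the shortest genes to 9.22% and 13.2% in the longest.

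Some intron fragments ended at a place that the other library also had within 50 bases. In replicate 1 these were 474 of 1320 intron models, with 54.0% of the intron reads. In replicate 2 they were 476 of 2224, with 41.2%. Over all fragments, most of which end on annotated ends, the share was 81.5% and 78.4% of the reads. The most-read of the shared intron models had nearly the same bounds in both libraries. Jarid2, a partner of Polycomb repressive complex 2, had 62 reads at chr13:44869597-44869820 in replicate 1 and 106 at chr13:44869572-44869817 in replicate 2. These were 98.4% and 98.1% of all reads of the gene. Anks1b had 40 reads at chr10:89878248-89878571 and 54 at chr10:89878250-89878570, which were 97.6% and 98.2% of its reads and lay 154708 and 154709 bases before the nearest annotated end. Abi1, an actin regulator, had 53 reads in each library at chr2:23012822-23014676 and chr2:23012848-23014677, 72.6% and 62.4% of its reads. In these 3 genes no exon of another annotated gene lay under the fragment. In Gm49325 the intron model of 46 and 65 reads at chr10:77616190-77617422 lies over exons of Sumo3 on the same strand. The 90 reads of AC154200.1 in replicate 2, at chr17:17345177-17345456, lie over Oaz1-ps. Such reads could belong to either gene.

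Class names, like 5′ edges, differed between the libraries in some genes. In 247 genes with at least 20 fragment reads in each library, 204 had at least 90% of these reads on 1 model in both libraries. The most-read class differed between the libraries in 49 of the 247 genes (19.8%), from ISM in replicate 1 to Genomic in replicate 2 in 24 and the other way in 25. In 42 of the 49 the 3′ end of the most-read model was the same within 50 bases. The share of the gene's reads in fragments differed by a median of 4.40 percentage points in these 49 genes and by 3.20 in the others. Hsd3b1 had 724 ISM reads in replicate 1 and 753 Genomic reads in replicate 2, and Slc25a5 had 454 ISM and 761 Genomic reads. Gabarapl1 and Cyp21a1 went from Genomic to ISM. Over the 247 genes the 3′ end of the most-read model was shared within 50 bases in 87.4% and the 5′ edge in 62.8%. Annotated ends are common to both libraries, so a shared 3′ end does not measure the agreement of read ends alone. The fragment reads of Gadd45gip1 lay on a model of 2155 bases over an intron in replicate 1 (167 reads). In replicate 2 they lay on a model of 217 bases in the last exon (207 reads), with the same 3′ end. Position likewise changed between last exon and another place in 21 of the 247 genes.

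Fragment shares were compared between the libraries gene by gene with Fisher's exact test and Benjamini-Hochberg adjustment over all 5453 genes, which takes account of counting error alone. With an adjusted p under 0.05 and a difference of at least 20 percentage points, 6 genes differed (0.110% of those tested), all with a higher share in replicate 2. No gene was lower in replicate 2 by this rule, and 5 were at an unadjusted p under 0.05 with the same difference, compared with 53 that were higher. With the adjusted p alone, 27 genes differed (0.495% of those tested), 24 of them higher in replicate 2. The shift was broad and small: 3157 genes had a higher share in replicate 2, 1395 a lower one, and the median difference was 0.77 percentage points. Among the listed genes, Cyp11a1, Hsd3b1, Cyp21a1, Chga and Apoe were among the 27 and none among the 6.

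Flot1, a protein of membrane microdomains, differed most. It had 1 fragment read of 74 in replicate 1 (1.35%) and 174 of 246 in replicate 2 (70.7%; adjusted p = 1.87e-26, Fisher's exact test). Of the 174, 173 lay on 1 model at chr17:35831470-35834693 that runs 1902 bases past the annotated end of Flot1, over exons of Tubb5 on the opposite strand. Tubb5 itself had 444 and 515 reads. Itpkc, a kinase of inositol trisphosphate, had 1 of 22 and 25 of 49 (51.0%), on a model that runs 2277 bases past its annotated end. Dnajc11, a mitochondrial chaperone, had 6 of 82 (7.32%) and 47 of 129 (36.4%), mostly on a model that begins at an annotated transcript start and ends 22961 bases before an annotated end in replicate 2. Gm20427 had 8 of 98 and 12 of 30, Gm45837 0 of 55 and 7 of 22, and Uckl1 0 of 49 and 16 of 65. The most-read models of these last 3 lie over exons of H2-Ke6, Pde2a and Zfp512b on the same strand. In replicates 1 and 2, H2-Ke6 itself had 98 and 216 reads, Pde2a 64 and 121, and Zfp512b 16 and 17. In all, 5 of the 6 genes had their most-read model over an exon of another gene. Of all fragment reads, 84.1% and 85.1% had no exon of another gene under them, which is a share of reads and not of genes. The part of the overlap with other genes in these differences was not tested.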

How the data were processed

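Long-read RNA-seq was measured in 2 libraries of 1 group, and the values are counts of reads per transcript model, which the authors deposited per library with TALON class names, the genome build mm10 and GENCODE M21 names, per the file headers. The aligner, its version, the priming and the strand setting are not stated in any source used here. Depth was 707726 and 832552 reads, of which 19466 and 21907 on ERCC spike-ins were left out. Exons, starts and ends, and exon numbers came from the deposited annotations, and coding sequence from the GENCODE M21 reference. Shares per library carry 95% Wilson intervals. Fisher's exact tests (scipy 1.17.1) were adjusted with statsmodels 0.14.6 and tested on simulated data. Overlaps used pyranges 0.1.4. Levels of classes were compared with exact permutation tests over 4 library values, which did not use the pairing of the classes within a library.

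Genes named are the 20 with most fragment reads, the 10 highest and 5 lowest shares among well-read genes, the most-read models per position, the called genes, and the genes with most fragment reads of each list. The members, gene lists and rules were chosen with earlier results of these data known. Ends inside exons were examined with transcript sequence, a choice made after seeing the data, because no genome was at hand. Alternatives covered class, position rule, read minimum, weighting and each library left out.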

Additional observations from a re-analysis of the deposited data

How the results depend on the processing

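With 2 libraries and no second group, these data limit what can be compared, and every interval covers counting error alone. The fragment share of mouse reads was 7.17% and became 5.21% with Genomic models alone and 1.96% with ISM models alone. With each library left out it was 5.98% and 8.36%, and it moved by less than the spread between the libraries under the other 6 settings, 5 of which were chosen after seeing the data.

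The share of fragment reads in the last exon, 72.5%, was 87.7% when the 3′ end alone was placed, 77.9% by the region with most bases, 71.3% with protein-coding transcripts, 63.1% and 97.5% for Genomic and ISM models alone and 65.9% with each model counted once. It was 71.2% without models under 50 bases and 77.5% without the 20 genes with most fragment reads, both chosen after seeing the data, and 71.7% and 73.4% with a library left out. The share in introns, 5.77%, was 8.77% by the 3′ end, 19.1% by the region with most bases, 7.87% and 0.181% for Genomic and ISM models alone, 14.9% with each model counted once and 7.31% without those 20 genes. With a library left out it was 5.46% and 6.07%. The median share per gene, 2.98% as the mean of both libraries, was 0% without Genomic models and 2.50% and 3.90% with a library left out. The share of reads ending within 50 bases of an annotated end, 78.2%, was 74.2% and 88.7% for Genomic and ISM models alone and 61.2% with each model counted once, and 77.9% and 78.5% with a library left out.

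The count of genes that differed between the libraries, 6, was 2 with at least 50 reads per library and 18 with a difference of at least 10 points. It was 82 with Genomic models alone and 78 with ISM models alone, where a change of class name counts as a change of share. The planned search for adenines after all ends, introns included, was not run for want of a genome. In its place, the exonic version (13.7%) was 12.2% with at least 14 adenines in 20, 11.0% and 21.3% for Genomic and ISM models alone and 12.4% with each model counted once. With a library left out it was 13.0% and 14.4%.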
